A study of Mus musculus with 2 samples.

Results

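Molecular chaperones, foldases and genes of the unfolded protein response were followed in 2 samples of cultured mouse cells of embryonic origin. The members were chosen by the platform's gene symbol, which took the Hsp, Dnaj, Cct, Bag, Fkbp, Ppi, Pfdn, Pdia, Erp and Ero1 families together with Ahsa, Stip1, Calr, Canx, Atf4, Atf6, Ddit3, Xbp1, Ern1 and Herpud symbols. The rule found 93 of 11484 named genes. It would take 140 protein-coding genes of the RefSeq mouse table, so 47 genes with such names, among them Hspa5, Hspa8, Hsp90ab1, Hspd1, Ppia, Xbp1, Ern1 and Atf6, were not analysed here.

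The small-molecule-generated stem cells, called stem cells from here on, were at passage 5 in ES (embryonic stem cell) medium, and the parental cells were at passage 1 in medium with FBS (fetal bovine serum). Both carried the strain label C57/ICR, and the labels name neither the molecule nor the type of the parental cells. Each sample had 1 column of normalized intensities from a 1-colour oligonucleotide array (Phalanx Mouse Whole Genome OneArray v2), although the series' design text speaks of 3 replicates. Every comparison is therefore between 2 columns of values, with no replicate check and no p-value, and passage and medium cannot be told apart from the treatment.

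Nascent and stress-damaged proteins are bound by HSP70, which DNAJ proteins load and BAG and HSP110 proteins unload. HSP90 and the ring chaperonin TRiC finish the folding of kinases, receptors, actin and tubulin. In the endoplasmic reticulum (ER), where secreted proteins fold, disulfide isomerases, prolyl isomerases and the lectins calnexin and calreticulin take part, and the sensors of the unfolded protein response raise their supply. Fibroblasts fold much collagen in the ER, which needs proline isomerization.

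The 25th percentile of each column, 93.4 in the stem cells and 93.8 in the parental cells, served as a floor. A gene that reached it in neither sample is termed dim, and no fold is stated for it. If the floor was missed on 1 side, or if a value of 65000 or more came close to the scanner's ceiling of 65535, the fold is stated as "at least". Genes were counted as higher or lower from a 2-fold difference on. The log2 difference of a probe scattered around its gene with an SD of 1.05, which is 2.07-fold, over 612 genes with 2 probes above the floor, so a single probe near 2-fold is within probe error. Of the marker genes, only those of pluripotent cells bear on a label, since the type of the parental cells is not named. Of 10 markers of pluripotent cells, 9 were higher, with summed intensities of 114963 in the stem cells and 872 in the parental cells. Of 6 measured fibroblast and mesenchyme markers all were lower (sums of 894 in the stem cells and 160123 in the parental cells), and of 6 measured macrophage and leukocyte markers 1 was higher and 3 were lower (sums of 13142 in the stem cells and 7496 in the parental cells). In the stem cells 1 macrophage and leukocyte marker, at 12204, made up most of that sum. No marker was at 0. Marker levels thus differed beside every result that follows and their part in those results was not tested, and fewer cells of a type cannot be told apart from less RNA per cell.

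More folding genes of the ER were lower than higher in the stem cells. Those of the cytosol and nucleus were more often higher than lower by count, but that count includes genes that passed the floor in the stem cells alone. Those above the floor in both samples lay near all genes. The floor was passed by 91 members in 1 sample or both, and of these 18 (19.8%) were higher in the stem cells and 26 (28.6%) were lower, where 22.1% of all 9766 named genes above the floor were higher and 22.6% were lower. The shares of the members as a whole thus lay near those of all genes. Among the 24 ER members above the floor, 0 were higher and 14 (58.3%) were lower, with a median log2 difference of -1.08. Of these 14, Dnajc1, Ero1b, Erp27 and Fkbp7 passed the floor in the parental cells alone, so their direction was fixed by the floor. The 19 ER members above the floor in both samples had a median of -1. Among the 57 cytosolic and nuclear members 16 (28.1%) were higher and 10 (17.5%) lower, with a median of 0.32, beside a median of 0.12 over all genes. Of the higher ones, Cct6b, Dnajb13, Dnajb6, Dnajc5g and Hspb9 passed the floor in the stem cells alone, so their direction was fixed by the floor. Of the lower ones, Hspa12b passed it in the parental cells alone. The 50 cytosolic and nuclear members above the floor in both samples had a median of 0.24, beside 0.13 over all such genes. No direction is read from so small a gap. Of the 8 mitochondrial members 2 were higher and 1 was lower. Compartments were assigned by hand with earlier results of these data known, and Fkbp8 and Ppic were placed in none. No test of the difference between compartments was made.

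**Figure D1:**
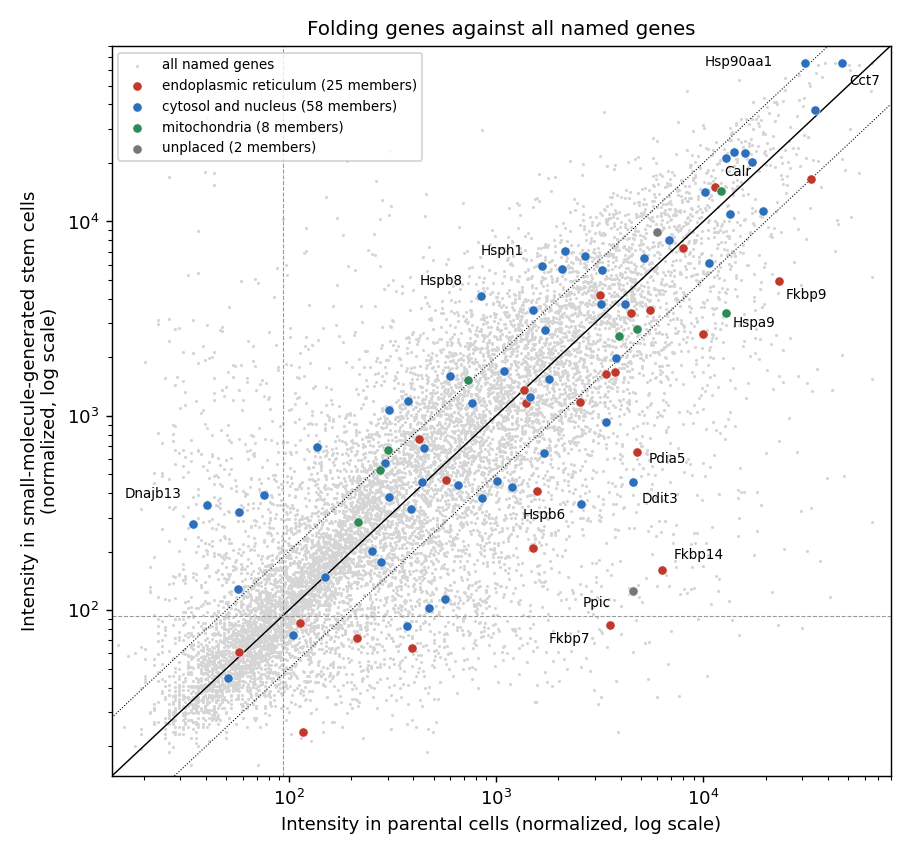
Normalized intensity of each gene in the small-molecule-generated stem cells (vertical, log scale) against the parental cells (horizontal, log scale), with all 11484 named genes in grey and the 93 members coloured by compartment. The solid line marks equal values, the dotted lines 2-fold and the dashed lines the floor of each sample. Most red points (ER) lie on or under the solid line, and Fkbp7, Fkbp14 and Ppic are the members farthest below it.

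**Figure D2:**
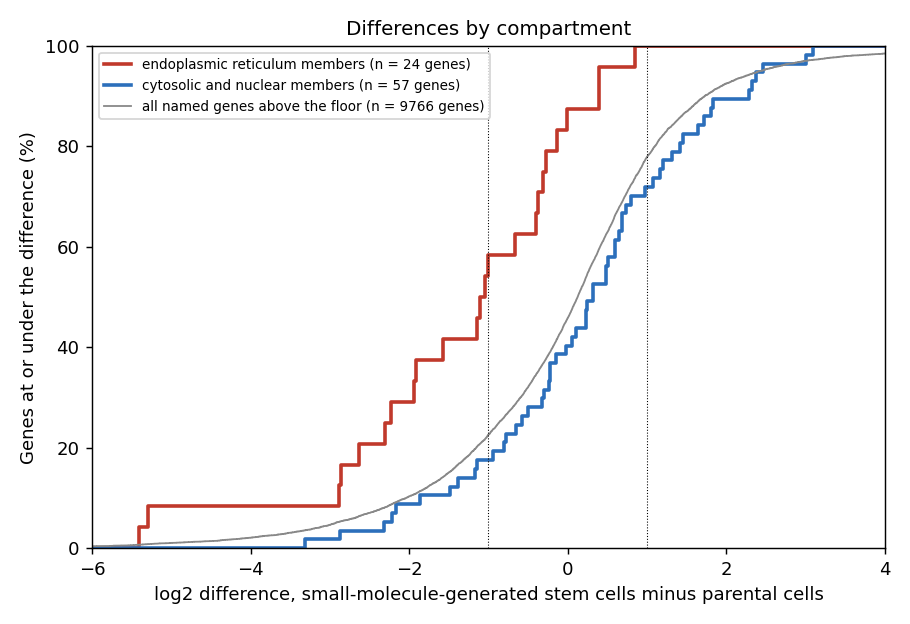
Cumulative share of genes (vertical, %) at or under a log2 difference (horizontal, small-molecule-generated stem cells minus parental cells) for 24 ER members, 57 cytosolic and nuclear members and 9766 named genes above the floor. At a difference of -1 the ER curve has reached 58.3%, against 17.5% for the cytosolic and nuclear members and 22.6% for all genes.

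Prolyl isomerases of the secretory pathway held the largest differences of all the members. Fkbp7 had an intensity of 83.7 in the stem cells, under the floor, and 3565 in the parental cells, at least 38.2-fold lower. Fkbp14, an ER isomerase that acts on collagen, had 161 in the stem cells and 6347 in the parental cells, 39.4-fold lower. Ppic, which encodes cyclophilin C, was 36.4-fold lower, with 126 in the stem cells and 4598 in the parental cells. These differences lay in the lowest 1% of all genes above the floor, at percentiles of 0.7, 0.8 and 0.9. Fkbp9, another ER isomerase, was 4.68-fold lower but stayed bright, at 4928 in the stem cells against 23080 in the parental cells.

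Smaller differences the same way were seen in other isomerases of the ER. Fkbp11 had 1176 in the stem cells and 2537 in the parental cells, 2.16-fold lower. Ppib, the ER cyclophilin B that belongs to the collagen prolyl 3-hydroxylation complex, had 16511 in the stem cells and 33107 in the parental cells, 2.01-fold lower. It lay at the edge of the size rule, and with each column centred on its median its log2 difference was -0.95. Fkbp2, also of the ER, did not follow them, with 1351 in the stem cells and 1360 in the parental cells.

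Isomerases outside the ER were divided. Of all 10 measured FKBP genes, those of the ER included, 1 was higher and 5 were lower. Of all 6 cyclophilins, Ppib and Ppic included, 1 was higher and 2 lower, beside 22.1% higher and 22.6% lower of all genes. Among the lower FKBP genes only Fkbp15 lies outside the ER. Fkbp15, a cytosolic member linked to endosomes, was 2.21-fold lower (460 in the stem cells and 1014 in the parental cells). Fkbp1a, which encodes FKBP12, the target of FK506 and rapamycin, had 11261 in the stem cells and 19340 in the parental cells, 1.72-fold lower, and passed 2-fold at log2 -1.02 with lowess centring. Fkbp8, an FKBP of the mitochondrial outer membrane that binds BCL2, was 1.49-fold higher (8875 in stem cells, 5962 in parental cells). The member above 2-fold was Fkbpl, an FKBP-like partner of HSP90, at 1612 in the stem cells and 603 in the parental cells, 2.67-fold higher.

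Of the cyclophilins of the nucleus and mitochondria only Ppih passed 2-fold. Ppih, a cyclophilin of the spliceosome, was read by 3 probes, which showed log2 differences of 0.94, 2.37 and 2.13, so that all were higher in the stem cells. Its mean over probes was 1068 in the stem cells and 305 in the parental cells, 3.51-fold higher. Ppie, also of the spliceosome, was 1.96-fold higher (573 in stem cells, 292 in parental cells), and past 2-fold at log2 1.03 with columns centred on their medians. Ppif, the mitochondrial cyclophilin D of the permeability transition, was 1.92-fold higher (528 in stem cells, 276 in parental cells). Ppig, a nuclear cyclophilin, was 1.57-fold lower (177 in stem cells, 278 in parental cells).

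Disulfide isomerases and oxidases had no member above 2-fold, where 22.1% of all genes above the floor were higher and 22.6% lower. Of 5 measured genes 3 were lower, 1 differed by less than 2-fold and Pdia6 was dim in both samples, with 61.2 in the stem cells and 57.8 in the parental cells. Pdia5 had 653 in the stem cells and 4815 in the parental cells, 7.37-fold lower. Ero1b, an oxidase that recharges disulfide isomerases, had 72.2 in the stem cells, under the floor, and 214 in the parental cells, at least 2.29-fold lower. Erp27, a non-catalytic relative of the disulfide isomerases, had 23.6 in the stem cells and 117 in the parental cells. It was counted as lower, but its parental value lay just above the floor and its fold has a lower bound of only 1.25. The bright member Erp29, a disulfide-isomerase-like chaperone, had 7309 in the stem cells and 8027 in the parental cells, within 2-fold.

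Calr, Canx and Hsp90b1, chaperones of the ER, differed little beside these. Calr, which encodes calreticulin, had 15067 in the stem cells and 11423 in the parental cells, and Canx, which encodes calnexin, had 4208 in stem cells and 3183 in parental cells as the mean of its probes. Both were 1.32-fold higher, although the probes of Canx differed in sign (log2 0.96 and -0.15). Hsp90b1, which encodes the ER HSP90 known as GRP94, had 3492 in the stem cells and 5537 in the parental cells, 1.59-fold lower. Lectin chaperones and GRP94 thus stayed within 2-fold. Of all 24 ER members above the floor 14 (58.3%) were lower by 2-fold or more, where 22.6% of all genes above the floor were. The rest of these 21, Erp29, Fkbp2, Dnajb12, Dnajc10, Dnajc14, Dnajc16 and Dnajc18, stayed within 2-fold as well. Of the 14, Dnajc1, Ero1b, Erp27 and Fkbp7 passed the floor in the parental cells alone. P4hb, an ER disulfide isomerase outside the rule and named after its value was seen, was 2.45-fold lower (15105 in stem cells, 37025 in parental cells).

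J-domain proteins of the ER were lower or within 2-fold. Dnajc3, also known as P58IPK, an ER co-chaperone and inhibitor of the kinase PERK, was lower on both its probes (log2 differences of -1.77 and -2.12), with a mean of 412 in the stem cells and 1583 in the parental cells, 3.85-fold lower. Dnajc1, a membrane-bound J protein that recruits HSP70 at the translocon, had 63.8 in the stem cells and 395 in the parental cells, at least 4.23-fold lower. Dnajb11, also known as ERdj3, was 2.06-fold lower (1648 in stem cells, 3393 in parental cells), and within 2-fold at log2 -0.99 with columns centred on their medians. The disulfide reductase gene Dnajc10 (3374 in stem cells, 4461 in parental cells, 1.32-fold lower) and Dnajc16 (764 in stem cells, 424 in parental cells, 1.80-fold higher) stayed within 2-fold, as did Dnajb12, Dnajc14 and Dnajc18.

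Of the 5 members of the unfolded protein response and of ER-associated degradation, 4 were lower and 1 differed by less than 2-fold. Over all genes above the floor 22.6% were lower and 22.1% higher. Each of the 5 was read by 1 probe. Ddit3, which encodes the stress-induced transcription factor CHOP, had 459 in the stem cells and 4571 in the parental cells, 9.96-fold lower. Herpud1, a scaffold of the ER degradation complex and a target of the response, had 2647 in the stem cells and 10022 in the parental cells, 3.79-fold lower. Its homolog Herpud2 was 7.24-fold lower (208 in stem cells, 1505 in parental cells), and Atf6b, a membrane-bound transcription factor related to ATF6, 2.22-fold lower (1689 in stem cells, 3744 in parental cells). Within 2-fold was Atf4, the transcription factor upstream of Ddit3, with 14144 in the stem cells and 10148 in the parental cells, 1.39-fold higher. An array of mRNA does not read the translation of Atf4, the step at which the response mainly controls it.

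Of the ATF4 and PERK pathway genes picked out of the pathway list after their values were seen, only Trib3 passed 2-fold. Genes of ER-associated degradation, picked the same way, lay on both sides. Trib3, a pseudokinase gene induced by CHOP, was 2.44-fold lower (3581 in the stem cells and 8748 in the parental cells). Chac1, a glutathione-degrading enzyme downstream of ATF4, was 1.74-fold lower (7219 in stem cells, 12583 in parental cells), and Eif2ak3, which encodes PERK, 1.69-fold lower (1177 in stem cells, 1991 in parental cells). Ppp1r15a, which encodes the phosphatase subunit GADD34, had 564 in stem cells and 505 in parental cells, a 1.12-fold difference. Edem2, a mannosidase-like protein of ER-associated degradation, was 1.83-fold higher (2575 in stem cells, 1404 in parental cells), and Edem3, of the same family, 2.65-fold lower (118 in stem cells, 314 in parental cells).

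Promoters of the members were searched for the elements through which stress factors are known to act, and 5 of those with a match are shown to set the element beside the measured difference. They belong to genes named by rule that were above the floor and hold an ER stress element before the start. RefSeq windows (GRCm38.p6) of 250 bases before to 50 after a start were available for 81 of the 93 members, 102 windows in all. The ER stress element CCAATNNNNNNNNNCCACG was found on either strand in 6 of these windows (5.88%), against 0.119% of all 32851 windows of the table and 0.13% of those of named genes. All 6 belonged to ER members, Calr, Canx, Dnajc3, Ero1b, Hsp90b1 and Pdia6. The shorter form ATTGGNCCACG, added after the data were seen, stood in the windows of Herpud1 and Dnajb11 (1.96% of member windows, against 0.0365% of all and 0.0605% of those of named genes). The members were chosen by name and include textbook targets of these elements. A match describes the letters of the window and does not show binding. The 250 bases before the start are given 5′ to 3′ on the strand of the gene, with the matched element in capitals, the free bases between its parts included. Herpud1 also has a match to TGATGNAA, the C/EBP-ATF response element, on the other strand, and Hsp90b1 has a pair of matches.
Dnajc3: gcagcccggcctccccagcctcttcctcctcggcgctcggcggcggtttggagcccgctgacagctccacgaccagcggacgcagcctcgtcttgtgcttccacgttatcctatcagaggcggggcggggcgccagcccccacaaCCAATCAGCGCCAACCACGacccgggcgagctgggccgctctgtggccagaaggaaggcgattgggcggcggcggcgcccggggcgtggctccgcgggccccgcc
Herpud1: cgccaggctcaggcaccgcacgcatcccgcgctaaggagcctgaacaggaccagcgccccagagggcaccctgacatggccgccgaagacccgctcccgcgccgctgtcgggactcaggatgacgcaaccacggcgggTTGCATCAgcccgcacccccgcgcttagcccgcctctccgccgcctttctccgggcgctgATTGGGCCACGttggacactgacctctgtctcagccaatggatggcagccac
Hsp90b1: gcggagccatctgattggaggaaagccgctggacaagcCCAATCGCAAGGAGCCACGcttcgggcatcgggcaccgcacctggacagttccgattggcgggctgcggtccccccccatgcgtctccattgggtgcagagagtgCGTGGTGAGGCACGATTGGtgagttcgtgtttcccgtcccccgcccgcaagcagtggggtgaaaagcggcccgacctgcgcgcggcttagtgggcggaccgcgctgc
Calr: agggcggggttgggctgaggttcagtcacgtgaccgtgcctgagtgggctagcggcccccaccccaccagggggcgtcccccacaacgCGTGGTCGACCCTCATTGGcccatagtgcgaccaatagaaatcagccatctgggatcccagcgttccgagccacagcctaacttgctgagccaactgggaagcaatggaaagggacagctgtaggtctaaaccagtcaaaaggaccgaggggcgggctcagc
Canx: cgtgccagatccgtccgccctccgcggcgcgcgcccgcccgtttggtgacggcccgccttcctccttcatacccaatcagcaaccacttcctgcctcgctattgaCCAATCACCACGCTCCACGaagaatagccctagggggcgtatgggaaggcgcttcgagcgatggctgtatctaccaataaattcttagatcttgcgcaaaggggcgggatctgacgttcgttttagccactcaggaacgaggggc

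These stretches lie at chr14:118937682-118937931 on the plus strand for Dnajc3, chr8:94386179-94386428 on the plus strand for Herpud1, chr10:86705445-86705694 on the minus strand for Hsp90b1, chr8:84846932-84847181 on the minus strand for Calr and chr11:50325674-50325923 on the minus strand for Canx. The ER stress element begins 105 bases before the start in Dnajc3, 162 in Calr and 145 in Canx, and 212 and 107 bases before it in Hsp90b1. Genes that share this element did not share a difference, since Dnajc3 was 3.85-fold lower, Ero1b at least 2.29-fold lower and Hsp90b1 1.59-fold lower, while Calr and Canx were 1.32-fold higher and Pdia6 was dim. The C/EBP-ATF element stood in 2 member windows (1.96%, against 3.97% of all and 2.46% of those of named genes), and TGACGTG, the core of the unfolded protein response element, in 2 (1.96%, against 2.01% of all and 2.4% of those of named genes).

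Of HSP90 and its partners in the cytosol some were higher in the stem cells by 2-fold or more, and others differed by less. Hsp90aa1, the stress-inducible HSP90 alpha, had 65494 in the stem cells, close to the ceiling, and 31088 in the parental cells, at least 2.11-fold higher. Its log2 difference of 1.07 was 0.76 with lowess centring and 0.92 with classes of probe identifiers centred, under 2-fold in both. Stip1, the adaptor HOP that passes clients from HSP70 to HSP90, had 5686 in the stem cells and 2076 in the parental cells, 2.74-fold higher. Ahsa1, which activates the HSP90 ATPase, had 8036 in stem cells and 6851 in parental cells, a 1.17-fold difference, and Fkbp5, an isomerase of the HSP90 complex of steroid receptors, 1708 in stem cells and 1092 in parental cells, 1.56-fold higher. From the pathway list, Ptges3, the HSP90 co-chaperone p23, was 7.47-fold higher (4780 in the stem cells and 640 in the parental cells) and Sugt1, an adaptor of HSP90, 2.20-fold higher (12688 in stem cells, 5761 in parental cells). Cdc37, the kinase-specific co-chaperone, was 1.75-fold higher (18426 in stem cells, 10533 in parental cells) and is named after its value was seen. So are Chordc1, Cdc37l1, Unc45a and St13, further partners of HSP90 in the list, which were from 1.11-fold (St13, 3174 in stem cells and 2861 in parental cells) to 1.37-fold higher (Chordc1, 7872 in stem cells and 5728 in parental cells).

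Of 8 measured HSP70 and HSP110 genes 1 (12.5%) was higher and 4 were lower, where 22.1% of all genes above the floor were higher and 22.6% lower. Hsph1, the HSP110 protein that releases nucleotide from HSP70, had 5927 in the stem cells and 1671 in the parental cells, 3.55-fold higher. Hspa1b, a stress-inducible HSP70, was 2.26-fold lower (380 in stem cells, 858 in parental cells), and its probe may also read the near-identical Hspa1a, which was not analysed here. Hspa2, a form abundant in testis, was 2.62-fold lower (648 in stem cells, 1700 in parental cells), and Hspa12b, a distant relative found in endothelium, at least 3.98-fold lower (82.8 in stem cells, 372 in parental cells). Hspa4 (1253 in stem cells, 1456 in parental cells), Hspa14 (6451 in stem cells, 5179 in parental cells) and Hspa1l (148 in stem cells, 150 in parental cells) stayed within 2-fold.

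Mitochondrial chaperones were found on both sides. Hspa9, the mitochondrial HSP70 mortalin, had 3384 in the stem cells and 12844 in the parental cells, 3.80-fold lower. Hspe1, the chaperonin cap HSP10, was 1.70-fold lower (2807 in stem cells, 4773 in parental cells). Trap1, the mitochondrial HSP90, and Clpp, a mitochondrial protease, both of the pathway list, were higher instead, Trap1 by 3.11-fold (9788 in stem cells, 3151 in parental cells) and Clpp by 2.89-fold (14016 in stem cells, 4849 in parental cells). Others of the list were not, since Clpx was 2.51-fold lower and the protease gene Lonp1 within 2-fold (1585 in stem cells, 1807 in parental cells). Dnaja3, a mitochondrial J protein, was 2.20-fold higher (665 in stem cells, 302 in parental cells), although its probes differed, at log2 0.53 and 1.75. Dnajc4, another J protein, was 2.07-fold higher (1530 in stem cells, 737 in parental cells), but within 2-fold at log2 0.91 with lowess centring.

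Nucleotide exchange factors and small heat shock proteins were found on both sides. Hspbp1, an exchange factor of HSP70, had 7065 in the stem cells and 2150 in the parental cells, 3.29-fold higher. Bag1 (22692 in stem cells, 14144 in parental cells, 1.60-fold) and Bag6 (21305 in stem cells, 12830 in parental cells, 1.66-fold) were on the same side but within 2-fold. Bag3, which directs HSP70 clients to autophagy together with HSPB8, had 934 in the stem cells and 3399 in the parental cells, 3.64-fold lower. Its partner Hspb8 stood on the other side, with 4131 in the stem cells and 848 in the parental cells, 4.87-fold higher. Hspb6, the HSP20 of smooth and striated muscle, was 7.31-fold lower (351 in stem cells, 2566 in parental cells), and Hspb1, a stress-induced small heat shock protein, was 1.50-fold lower (439 in stem cells, 658 in parental cells). Hspb7 had 74.4 in the stem cells, under the floor, and 105 in the parental cells.

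Most subunits of the chaperonin TRiC stayed within 2-fold. Of 7 measured Cct genes 6 differed by less than 2-fold, as did 5398 of all 9766 genes above the floor. Of those 6, 5 were on the higher side in the stem cells, as were 5290 of all genes. They ran from 1.07-fold (Cct8, 37285 in stem cells and 34739 in parental cells) to 1.52-fold (Cct3, 1164 in stem cells and 766 in parental cells). Cct6b, the other gene, passed the floor in the stem cells alone and was at least 2.97-fold higher. Cct7 reached 65303 in the stem cells, close to the ceiling, against 46757 in the parental cells, at least 1.40-fold higher. Cct6a was 1.23-fold lower as a mean of probes that disagreed, at log2 differences of 0.73 and -1.33. Tcp1, the subunit of TRiC that the rule does not take, had 4248 in stem cells and 3848 in parental cells, a 1.10-fold difference.

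The subunits of prefoldin, which hands actin and tubulin chains to TRiC, were found on both sides. Pfdn1 was 2.47-fold higher (6646 in the stem cells and 2687 in the parental cells) and Pfdn6 2.30-fold higher (3486 in stem cells, 1517 in parental cells), with log2 differences of 1.52 and 0.88 on its probes. Pfdn4 was 2.79-fold lower (430 in stem cells, 1198 in parental cells), on both of its probes (-1.90 and -1.06). Pfdn5 was 1.74-fold lower (6122 in stem cells, 10669 in parental cells).

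**Figure D3:**
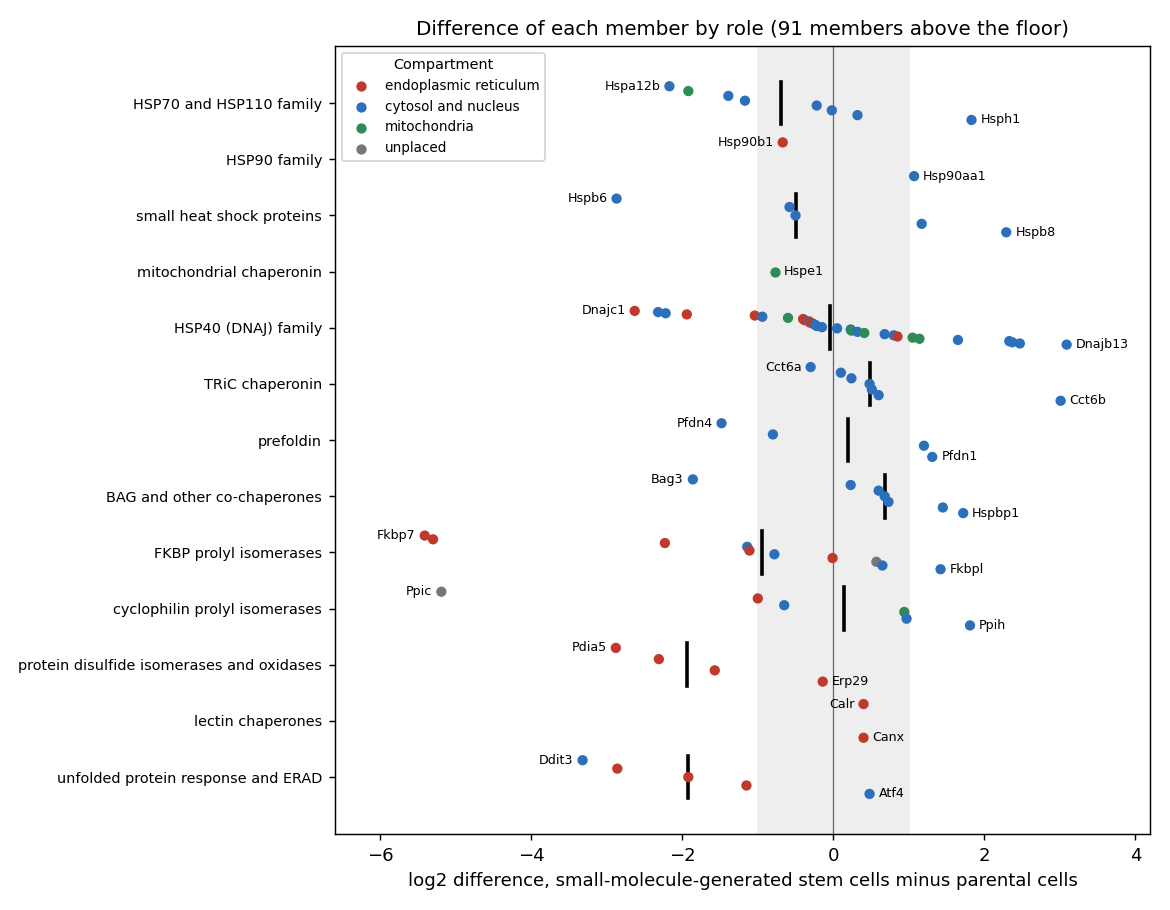
Log2 difference (horizontal, small-molecule-generated stem cells minus parental cells) of the 91 members above the floor, by role and coloured by compartment; black bars are medians of roles with 3 or more members, and the shaded band is less than 2-fold. The lowest and highest member of each role are named, and the TRiC subunits other than Cct6b lie inside the band while the FKBP genes spread from -5.41 to 1.42.

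The J-domain family held differences in both directions. Of all 31 measured Dnaj genes, those of the ER and mitochondria included, 30 were above the floor and Dnajb8 was dim. Of the 30, 7 (23.3%) were higher and 5 (16.7%) lower, near the 22.1% and 22.6% of all genes. Dnajc6, the clathrin-uncoating auxilin of neurons, had 689 in the stem cells and 137 in the parental cells, 5.03-fold higher. Dnajb6, which prevents aggregation of polyglutamine proteins, had 391 in the stem cells and 75.8 in the parental cells, at least 4.17-fold higher. Dnajc17, a nuclear J protein, was 3.15-fold higher (1190 in stem cells, 378 in parental cells). On the other side, Dnaja4 was 5.00-fold lower (114 in stem cells, 571 in parental cells) and Dnajc5, the cysteine string protein of secretory vesicles, 4.66-fold lower (103 in stem cells, 478 in parental cells). Dnajb1, the main partner of HSP70 in the heat shock response, differed by 1.17-fold (3769 in stem cells, 3224 in parental cells). It was 1 of 18 J-domain genes within 2-fold, whose log2 differences ran from -0.94 in Dnajc13, an endosomal protein, to 0.85 in Dnajc16. Dnajc13 passed 2-fold, at -1.09, with lowess centring.

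Some members known for expression in testis were picked, after the values were seen, because they passed the floor in the stem cells alone, so nothing is read from the direction they share. Dnajb13, a protein of sperm flagella, had 346 in the stem cells and 40.6 in the parental cells, at least 3.69-fold higher. Dnajc5g was at least 3.41-fold higher (320 in stem cells, 57.8 in parental cells), and Cct6b, the testis form of a TRiC subunit, at least 2.97-fold (278 in stem cells, 34.6 in parental cells). Hspb9, with 128 in the stem cells and 57 in the parental cells, had a bound of only 1.36. Hspa2 was lower, Dnajb8 was dim and Hspa1l was within 2-fold, and these are known from testis as well.

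The heat shock element GAANNTTCNNGAA, searched on both strands, stood in 5 of the 102 member windows (4.90%), against 0.603% of all windows and 0.57% of those of named genes. They belonged to 3 of the 81 members with a window, where 179 of all 27025 genes with a window had the element. Dnajb6 and Hsph1 had 2 overlapping windows each, so that 1 site was counted in both, and Hspe1 had 1. Dnajb6 was at least 4.17-fold higher, Hsph1 3.55-fold higher and Hspe1 1.70-fold lower. In Hsph1 the match lies after the start. The 250 bases before the start of the other 2 genes, with matches in capitals, lie at chr5:29735648-29735897 on the plus strand for Dnajb6 and chr1:55087898-55088147 on the plus strand for Hspe1, where 2 matches overlap.
Dnajb6: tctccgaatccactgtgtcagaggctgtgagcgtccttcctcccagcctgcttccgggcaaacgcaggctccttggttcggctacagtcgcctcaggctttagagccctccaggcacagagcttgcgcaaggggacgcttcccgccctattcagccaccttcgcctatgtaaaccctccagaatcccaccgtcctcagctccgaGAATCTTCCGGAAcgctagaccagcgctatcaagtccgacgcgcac
Hspe1: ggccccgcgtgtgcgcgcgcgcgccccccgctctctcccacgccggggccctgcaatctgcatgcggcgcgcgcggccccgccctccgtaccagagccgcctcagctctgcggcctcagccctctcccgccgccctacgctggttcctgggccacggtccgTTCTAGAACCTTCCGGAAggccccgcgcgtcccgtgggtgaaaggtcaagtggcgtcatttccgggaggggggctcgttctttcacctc

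At 4-fold or more, 6 members (6.59%) were higher and 13 (14.3%) lower, where 7.52% and 10.3% of all genes above the floor were. The higher ones were Dnajb13, Cct6b, Dnajc5g, Dnajb6, Dnajc6 and Hspb8, and of these only Dnajc6 and Hspb8 were above the floor in both samples. The lower ones were Fkbp7, Fkbp14, Ppic, Ddit3, Pdia5, Hspb6, Herpud2, Dnajc1, Dnaja4, Erp27, Fkbp9, Dnajc5 and Hspa12b. The bound of Cct6b, Dnajb13, Dnajc5g, Hspa12b and Erp27 is under 4-fold.

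**Figure D4:**
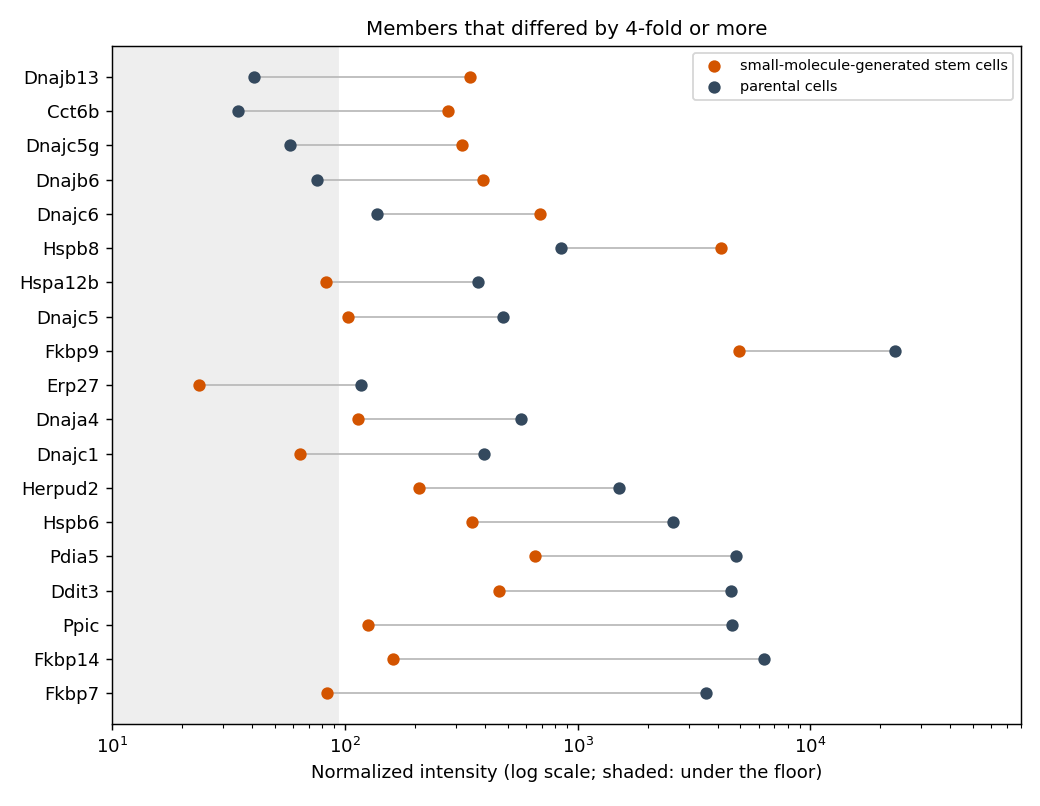
Normalized intensity (horizontal, log scale) of the 19 members with a difference of at least 4-fold, small-molecule-generated stem cells (orange) and parental cells (dark blue), 1 column each; the shaded area is under the floor. The upper 6 genes are higher in the small-molecule-generated stem cells and the lower 13 are lower, with the widest gaps for Fkbp7, Fkbp14 and Ppic.

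Most members were read by 1 probe, so the probes of the other 13 give the check at hand. In 12 of them at least 2 probes were above the floor, with a median gap between the outermost probes of 1.16 on the log2 scale. The probes had the same sign in 7 members and opposite signs in 5, which were Bag4, Canx, Cct6a, Dnaja1 and Dnajc19. Bag4 had the widest gap, of 2.26, with log2 differences of -0.53 and 1.73. Dnajc3 and Pfdn4 were lower by 2-fold or more on every probe, and none of the 13 was higher by that much on every probe. None of the 5 members with opposite signs was counted as higher or lower.

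**Figure D5:**
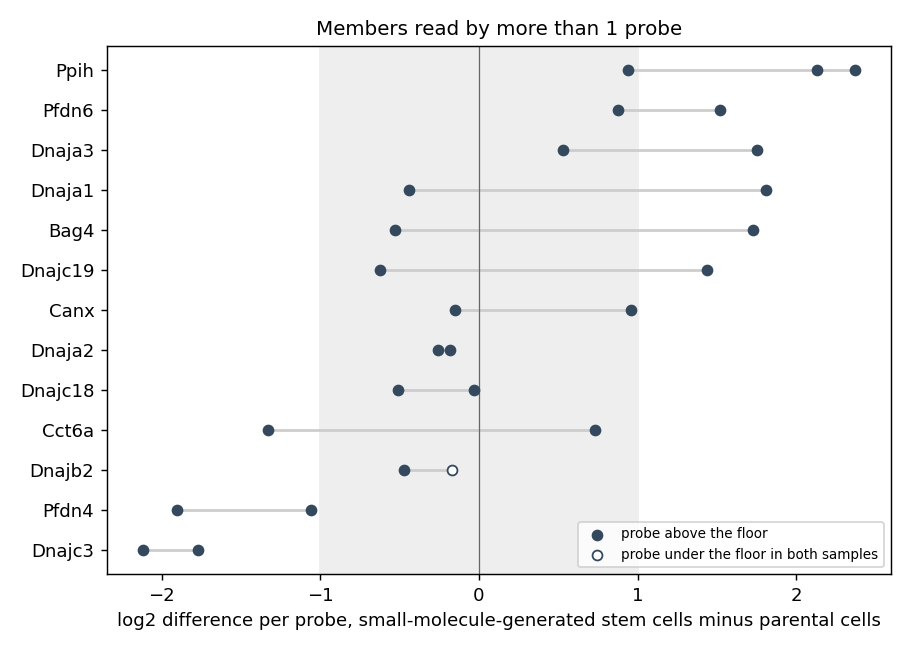
Log2 difference (horizontal, small-molecule-generated stem cells minus parental cells) of each probe of the 13 members with more than 1 probe; open points were under the floor in both samples and the shaded band is less than 2-fold. The probes of Dnajc3 and Pfdn4 lie left of the band, and those of Bag4, Canx, Cct6a, Dnaja1 and Dnajc19 fall on both sides of 0.

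Members tended to be bright. By the mean of both samples, 41 of the 91 lay in the brightest 25% of all genes above the floor. There 7 members (17.1%) were higher and 8 (19.5%) lower, where 22.4% and 19.8% of all genes of that brightness were. Of the 24 members in the next 25%, 4 (16.7%) were higher and 12 (50%) lower, where 25.5% and 24.4% of all genes of that brightness were. Of the 14 in the 25% below that, 2 were higher and 2 lower, where 21.9% and 25.9% of all such genes were. In the dimmest 25%, which lies nearest the floor, 5 of 12 members were higher and 4 lower, where 18.7% and 20.4% of all such genes were.

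Genes of protein folding and ER quality control that the rule does not take were counted from a list of 105 genes, of which 75 were measured and 69 were above the floor. Of these 7 (10.1%) were higher and 16 (23.2%) lower, with a median log2 difference of 0.00, where 22.1% of all genes above the floor were higher and 22.6% lower. The share of lower genes in the list was thus that of the background. The largest difference was in Serpinh1, the collagen chaperone HSP47 of the ER, which had 1596 in the stem cells and 28763 in the parental cells, 18-fold lower. Txndc5, a disulfide isomerase of the ER, was 8.37-fold lower (1407 in stem cells, 11774 in parental cells), and Sec63, a J-domain protein of the translocon, 6.62-fold lower (232 in stem cells, 1536 in parental cells).

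Further genes of the ER were among the lower genes of the list. Ddost, a subunit of the oligosaccharyltransferase, was 5.20-fold lower (3124 in the stem cells and 16251 in the parental cells). The membrane-bound transcription factor gene Creb3 was 4.56-fold lower (466 in stem cells, 2123 in parental cells), and Tmx4, a thioredoxin-like membrane protein, 3.92-fold lower (753 in stem cells, 2949 in parental cells). Derl2, a component of ER-associated degradation, was 2.81-fold lower (217 in stem cells, 609 in parental cells), and Ssr4, a subunit of the translocon-associated complex, 2.69-fold lower (8831 in stem cells, 23784 in parental cells). Lower genes outside the ER were Clpx, the mitochondrial unfoldase that works with Clpp (330 in stem cells, 828 in parental cells, 2.51-fold), Eif2ak2, the cytosolic kinase PKR (227 in stem cells, 594 in parental cells, 2.62-fold), and Trib3. Not every gene of these ER complexes followed, since Rpn1, another oligosaccharyltransferase subunit, had 14280 in stem cells and 13956 in parental cells, and Ssr2 was 1.60-fold higher (22069 in stem cells, 13787 in parental cells). Many other ER genes of the list, among them Sec61a1, Sec61b, Rpn2, Ganab, Mogs, Tmx1, Tmx2 and Sil1, also stayed within 2-fold. These genes, Clpx, Eif2ak2, Rpn1 and Ssr2 were named after their values were seen. No count was made of the ER genes of the list.

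The list held 7 higher genes. Besides Ptges3, Sugt1, Trap1 and Clpp they were Hsf2, a heat shock transcription factor active in embryonic cells and germ cells, at 1929 in the stem cells and 620 in the parental cells (3.11-fold), and Sgta, a chaperone of tail-anchored proteins (4074 in stem cells, 1907 in parental cells, 2.14-fold). The last was Derl3, of ER-associated degradation, at 735 in the stem cells and just under the floor at 93.8 in the parental cells, at least 7.84-fold higher.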

How the data were processed

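Total RNA was amplified, labelled with Cy5 and hybridised to a 1-colour array, per the labels' protocols. The deposited values are normalized probe intensities on a linear scale. The sources used here name no scanner, background correction or normalization method. Medians of 305 (small-molecule-generated cells) and 304 (parental cells) were nearly equal, so differences in total RNA cannot be seen. Of 13989 probes, 12380 had a gene symbol in the platform annotation. Symbols were updated by Entrez identifier for 12364 probes with RefSeq names (GRCm38.p6), while 16 could not be. The log2 of every intensity was taken, and averaged over probes within genes (Python 3.11.15, pandas 2.3.3). With 1 sample per group no test was made, and precision is limited by the number of arrays. The computation was tested on simulated data. Members, lists, compartments and size rules were chosen with earlier results of these data known.

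Named genes were 34 genes fixed by name where measured, members at 4-fold or more, the highest and lowest of each role, members with 2 or more probes, and up to 8 list genes each way. Others were named after their values were seen. A planned comparison of protein features was not run. Alternatives were centring on the median or by lowess (span 0.3), the brightest probe, an offset of 50, floors at the 10th and 50th percentile or none, values set to the floor, a 4-fold rule and counting probes. Added after seeing the data were centring per class of probe identifier, leaving out members whose probes differ in sign, and genes above the floor in both samples only.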

Additional observations from a re-analysis of the deposited data

How the results depend on the processing

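Counts of members and of list genes past the size rule were recomputed under 13 alternatives and medians by compartment under 11 of these, all but the 4-fold rule and the count of probes, 107 values in all, of which 101 stayed within 1.5 times the count or within the probe error of the median. For the 8 mitochondrial members that error was wider than their median of 0.32, so staying within it says little about them. With the 4-fold rule 6 members were higher and 13 lower, and 2 list genes were higher and 5 lower. The median of the members, -0.14, was -0.30 with lowess centring. It was -0.01 with the floor at the 50th percentile and -0.02 for members above the floor in both samples. Lowess centring took the median of the cytosolic and nuclear members from 0.32 to 0.14. The median of the ER members ran from -1.26 to -1 over the alternatives. The median of the list genes, 0.00, had values of -0.14 with lowess centring and 0.06 with columns centred on their medians, and has no direction. Without the 4-fold rule and the count of probes, members lower by 2-fold or more ran from 21 to 28, and members higher from 13 to 20. The low ends were for the 79 members above the floor in both samples. Counted as probes, 29 were lower and 22 higher. No paired analysis was possible because each group had 1 column. Signal over background limits the members under the floor in 1 sample, whose folds are bounds, and values near the ceiling limit Hsp90aa1 and Cct7.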
